A study of Homo sapiens with 8 samples.

Results

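The HOX genes of the HOXA, HOXB, HOXC and HOXD clusters were followed on arrays of OAW42-R cells after UCA1 downregulation. Members were taken as the genes whose RefSeq accession, given by the array's design for a feature, belongs to a gene named HOXA, HOXB, HOXC or HOXD and a number, without antisense genes. The rule found 39 genes among 47753 named genes and transcripts, and 38 of them are described. The other 1 was well above background on none of the 8 arrays. The family was chosen by the difference between siUCA1 and sictrl, in which HOXC4 stood out, so that the differences of its members, and their calls in the fit over all genes, are given as a description with no p-value.

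OAW42-R is a cisplatin-resistant cell line derived from OAW42, an ovarian cancer line. Cells were transfected with a pool of nontargeting control siRNAs (sictrl, 4 arrays) or with siRNAs number 2 and number 4 against the long noncoding RNA UCA1 (siUCA1, 4 arrays), both at 20 nM with the same transfection reagent. The methods of the study give 4 independent experiments. The same 4 replicate names (A1, M2, A2 and A3) occur under sictrl and under siUCA1, and the sources do not state whether a shared name marks 1 experiment. The labels give 24 h between transfection and extraction, whereas the methods of the study give a longer time. All arrays share 1 resistant line and its parent, so that they measure the effect of these siRNAs in 1 cell background.

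HOX genes encode homeodomain transcription factors that give cells their position along the body axis. They lie in clusters in which a gene's number follows its position, and genes with the same number in different clusters are paralogues that arose from a common ancestor. In adult tissues many cells keep the HOX pattern of their origin, and the genes of the HOXA9 to HOXA13 region are known for patterning the Müllerian ducts, from which the female reproductive tract forms. HOX proteins bind DNA together with cofactors of the PBX, MEIS and PKNOX families, and trithorax and Polycomb proteins keep the clusters active or silent.

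The values are log2 intensities relative to the 75th percentile of the same array, which was between 107.5 and 134.5 intensity units for sictrl and between 106.5 and 118.2 for siUCA1. Different features bind their targets differently, so that levels were compared between arrays and not between genes. UCA1, the target of the siRNAs, fell by 5.04 (SE 0.29, limma, adjusted p = 0.000122) and was lower on all 4 siUCA1 arrays. Of the markers of serous carcinoma cells, 7 of 10 were well above background on all 8 arrays, among them PAX8 and EPCAM, while WT1, MUC16 and MSLN were on none. None of 6 fibroblast markers was above background on all arrays. The leukocyte marker CD14 and the endothelial marker VWF were, whereas PTPRC, CD3E, PECAM1, CDH5 and KDR were on 2 or fewer. The summed linear level of the 3 leukocyte markers on the array was 0.539 to 0.715 in sictrl and 0.693 to 1.26 in siUCA1, and that of the 4 endothelial markers 0.829 to 1.06 and 0.998 to 1.34. That of the 6 fibroblast markers was 0.236 to 0.493 and 0.350 to 0.552, and that of the 10 serous markers 520 to 709 and 666 to 1040. CDH1 fell by 0.81 (limma, adjusted p = 0.0149), FOLR1 rose by 1.05 (limma, adjusted p = 0.0390) and CD14 by 0.70 (limma, adjusted p = 0.0478). The part of these levels in the HOX values was not tested. Feature Extraction removed a trend in brightness over the array surface that was larger on the sictrl A3 array (root mean square 0.321) and the siUCA1 A1 array (0.287) than on the other 6 arrays (0.0737 to 0.0943).

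The 38 HOX genes had 44 features, of which 18 were above background on no array. OAW42-R cells had 17 HOX genes (44.7%) well above background on all 8 arrays, 8 on some and 13 on none. Over all genes named through RefSeq, 50.2% were above background on all arrays. In the HOXA cluster 5 of 10 genes were on all arrays, namely HOXA3, HOXA4, HOXA5, HOXA9 and HOXA10. In the HOXB cluster they were 7 of 10, namely HOXB2, HOXB4, HOXB5, HOXB6, HOXB8, HOXB9 and HOXB13, and the other 3 (HOXB1, HOXB3 and HOXB7) were on none. In the HOXC cluster they were 4 of 9, namely HOXC4, HOXC6, HOXC9 and HOXC13. In the HOXD cluster HOXD8 alone of 9 was on all arrays, and 6 genes (HOXD3, HOXD4, HOXD9, HOXD10, HOXD11 and HOXD12) were on none. A gene not above background may still be expressed below what its feature can measure. The siUCA1 A2 array had the fewest spots above background, 20858 against 22682 to 24039 on the others. Its dimmest passing signal was also the highest, at -2.11 against -3.32 to -2.69, so that counts of arrays depend on the array as well.

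**Figure D1:**
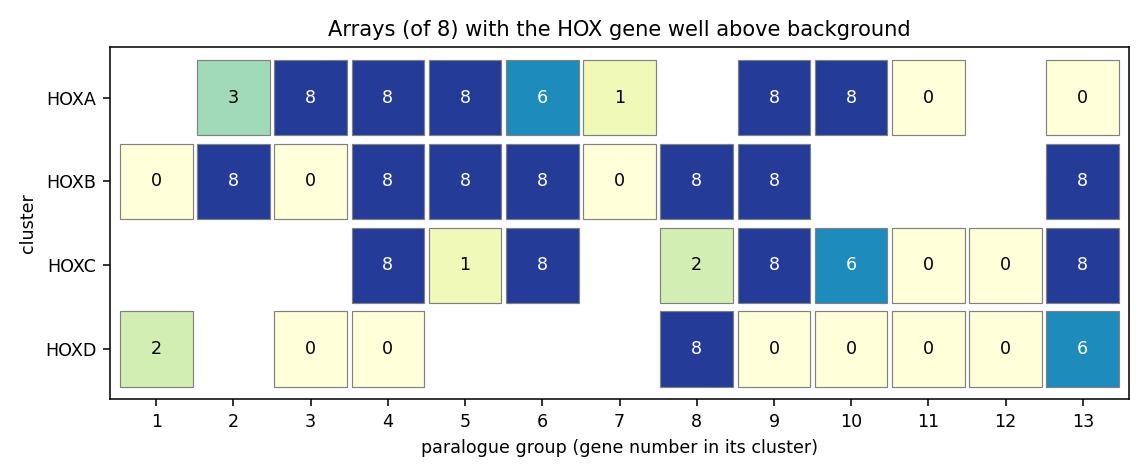
The number in each cell is the count of arrays, of 8, on which the best feature of the HOX gene was well above background, with clusters in rows and paralogue groups in columns. All 4 clusters have detected genes, and 17 of 38 genes reach 8 arrays, 7 of them in the HOXB cluster and 1 in the HOXD cluster.

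The paralogue groups differed in the same way. Of the 4 genes of group 4, HOXA4, HOXB4 and HOXC4 were above background on all arrays and HOXD4 on none. In group 9 the same held for HOXA9, HOXB9 and HOXC9 against HOXD9. In groups 11 and 12 none of the 5 genes was above background on any array. In group 13 HOXB13, known from the prostate, and HOXC13, known from the hair follicle, were on all arrays, HOXD13 on 6 and HOXA13 on none. HOXA11, which is expressed in the uterus, was on none.

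A HOX gene was kept for the fit when a feature passed background on every sictrl array or on every siUCA1 array, which held for 18 of 38 genes. Of these, 3 were among the genes called in the fit over all genes (limma, adjusted p under 0.05), namely HOXC4 and HOXC6, lower in siUCA1, and HOXC9, higher in siUCA1. With single arrays left out, HOXC6 was among them in 3 of 8 fits and HOXC9 in 2 of 8. Over all 15455 genes tested, 11.6% passed this threshold, 5.72% upward and 5.85% downward. Since the family was chosen on this contrast, the count is a description and nothing is read from it. The median log2 difference of the 18 genes was 0.09, compared with 0.03 over all genes, and their differences ran from -2.38 to 0.69. The values of the 2 conditions did not overlap for 4 of the 18 (HOXA4, HOXC4, HOXC6 and HOXC9), compared with 20.9% of all genes.

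**Figure D2:**
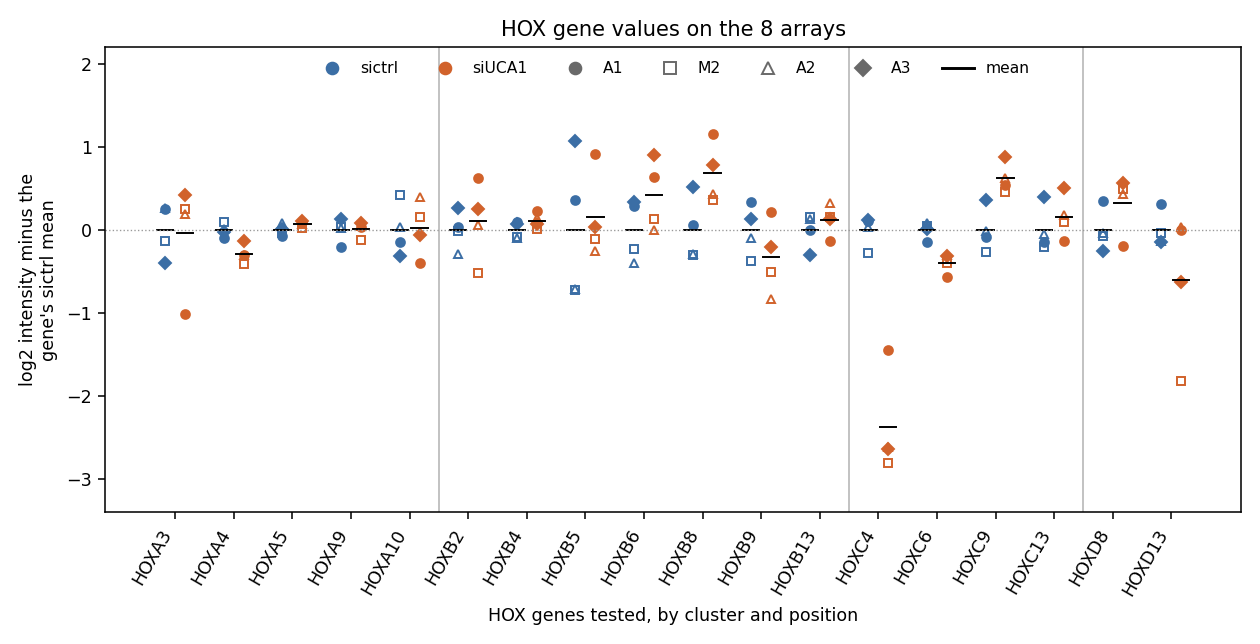
Each symbol is 1 array, drawn as the log2 intensity of the HOX gene minus its sictrl mean, with sictrl in blue, siUCA1 in orange, symbols for the replicate names and a black bar for the mean of 4 arrays. HOXC4 lies lowest in siUCA1, with the A1 array nearer to sictrl, and HOXC6 and HOXC9 show shifts of -0.40 and 0.63 without overlap.

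HOXC4 is the gene with the lowest number in the HOXC cluster, on chromosome 12. Its only feature was at 1.69, 1.30, 1.61 and 1.70 on the sictrl arrays A1, M2, A2 and A3. On the siUCA1 arrays of the same names it was at 0.13, -1.23, -1.03 and -1.07. All siUCA1 values lay below all sictrl values, and the A1 array of siUCA1 lay apart from the other 3. The difference in means was -2.38 (SE 0.28), so that siUCA1 cells had 19.3% of the sictrl signal, 5.19-fold lower. It ranked 7 from the lowest among the differences of 15455 genes. Between arrays of the same name the differences were -1.56 (A1), -2.53 (M2), -2.65 (A2) and -2.76 (A3). Within the first row of the slide the difference was -1.93 and within the second -2.82. Without the siUCA1 A1 array it was -2.69, and without both arrays of large surface trend -2.64. Over 23 alternative fits the difference ran from -2.69 to -1.56, and the one nearest to zero came from another background correction (normexp). In bulk RNA, fewer cells with a transcript and less of it per cell cannot be told apart.

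HOXC5 and HOXC6 are the next genes of the cluster, and in the RefSeq table HOXC4, HOXC5 and HOXC6 are all given the same gene start. The feature of HOXC5 passed background on 1 array only (siUCA1 M2), so that it has no usable difference. Its values were -3.61, -3.25, -4.74 and -3.48 in sictrl and -3.46, -2.41, -4.12 and -4.87 in siUCA1. HOXC6, a gene of the thoracic region, was at 1.19, 1.38, 1.42 and 1.35 in sictrl and at 0.76, 0.93, 1.04 and 1.02 in siUCA1. All siUCA1 values were lower, and the spread within a condition (SD 0.10 and 0.12) was below the difference of -0.40 (SE 0.10), a 1.32-fold fall.

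The windows around the starts of HOXC4 and its paralogues are shown as the sequence beside the group 4 genes described here. RefSeq windows of 300 bases (250 before the start and 50 after, GRCh38.p14) were at hand for 20 of the 38 members. The window of HOXC4 and HOXC5 is the same sequence, at chr12:54016638-54016937 on the + strand. That of HOXA4 is at chr7:27130708-27131007 on the - strand and that of HOXD4 at chr2:176151300-176151599 on the + strand. Capitals mark CCAAT on either strand.
HOXC4 and HOXC5: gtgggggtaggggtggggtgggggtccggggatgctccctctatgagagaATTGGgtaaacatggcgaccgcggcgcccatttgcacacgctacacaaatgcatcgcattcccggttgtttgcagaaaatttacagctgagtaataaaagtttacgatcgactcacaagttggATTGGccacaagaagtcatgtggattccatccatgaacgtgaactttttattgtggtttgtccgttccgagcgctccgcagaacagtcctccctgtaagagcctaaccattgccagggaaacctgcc
HOXA4: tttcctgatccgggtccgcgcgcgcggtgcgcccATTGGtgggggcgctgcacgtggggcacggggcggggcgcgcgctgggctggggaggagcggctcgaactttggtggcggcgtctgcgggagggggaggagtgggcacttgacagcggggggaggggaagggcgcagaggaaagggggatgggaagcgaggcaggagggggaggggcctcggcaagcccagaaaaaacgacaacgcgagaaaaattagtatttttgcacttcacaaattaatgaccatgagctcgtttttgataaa
HOXD4: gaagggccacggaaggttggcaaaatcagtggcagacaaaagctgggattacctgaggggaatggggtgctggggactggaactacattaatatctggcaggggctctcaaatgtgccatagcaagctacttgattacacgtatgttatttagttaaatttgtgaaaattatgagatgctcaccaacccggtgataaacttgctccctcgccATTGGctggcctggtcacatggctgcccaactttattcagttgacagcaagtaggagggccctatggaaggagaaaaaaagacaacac

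CCAAT, an element bound by the NF-Y factor, was found on either strand in 17 of the 20 HOX windows, compared with 34.6% of 35116 windows of the same length, and HOXC4 and HOXC5 count there as 2 windows with 1 sequence. HOXC4 held it 2 times, HOXA4 and HOXD4 once each. GGGCGG, bound by SP1 and related factors, was in 10 of 20 (45% of all windows). TATAAA, the start-site element of many regulated genes, was in 4 (11.5%). TGATNNAT, a form bound by HOX and PBX proteins together, was in 3 (7.4%) and TAATTA, a homeodomain core, in 2 (4.84%). AGGTCA, a nuclear receptor half-site, was in 0 of 20, compared with 13.8% of all windows. None of these letters except CCAAT was in the HOXC4 window. The HOXC4 window had 15 CpG, near the median of 14 over all windows, and that of HOXA4 had 27, whereas that of HOXD4 had 4. A match is a stretch of letters and says nothing of binding in these cells.

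Among the paralogues of HOXC4, HOXA4 was at -0.42, -0.23, -0.31 and -0.35 in sictrl and at -0.63, -0.74, -0.62 and -0.46 in siUCA1. The values of the 2 conditions did not overlap, with a difference of -0.28 (SE 0.10). HOXB4, known for the expansion of blood stem cells, was at 2.79, 2.60, 2.60 and 2.77 in sictrl and at 2.92, 2.70, 2.83 and 2.76 in siUCA1. Its values overlapped, with a difference of 0.11 (SE 0.10). HOXD4 was not above background, with values from -5.31 to -4.84 in sictrl and from -5.35 to -4.36 in siUCA1.

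Toward the other end of the HOXC cluster, HOXC9, a gene known from the specification of thoracic motor neurons, was at 1.97, 1.78, 2.04 and 2.41 in sictrl. In siUCA1 it was at 2.60, 2.51, 2.67 and 2.93. Every siUCA1 value lay above every sictrl value, with a difference of 0.63 (SE 0.15), 1.54-fold. HOXC13 had a difference of 0.16 (SE 0.17) with overlapping values. HOXC10 was above background on 3 arrays of each condition and dimmest on the 2 arrays of large surface trend, at -1.97 on sictrl A3 and -2.47 on siUCA1 A1. Its other values were -0.97 to -0.74 in sictrl and -1.40 to -1.01 in siUCA1. HOXC8 was above background on 1 array of each condition, and HOXC11 and HOXC12 on none. Within 1 cluster, then, HOXC4 and HOXC6 were lower, HOXC9 was higher, and the values of HOXC13 overlapped.

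With single arrays left out, the difference of HOXC6 ran from -0.44 to -0.34 and that of HOXC9 from 0.54 to 0.75. Within the 2 rows of the slide HOXC6 was at -0.51 and -0.28 and HOXC9 at 0.85 and 0.40.

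In the HOXA cluster the 5 genes in the fit had differences from -0.28 to 0.07. HOXA5, known from lung development, varied least, with a difference of 0.07 (SE 0.08) and an SD within conditions of 0.05, against a median of 0.22 over all genes. HOXA9 had a difference of 0.02 (SE 0.10) and HOXA10 of 0.03 (SE 0.20). HOXA9 was read by 1 of its 4 features, and the other 3 were above background on no array. HOXA10 had a second feature, dim on 6 arrays, and HOXB2 and HOXD9 each had 2 features of which HOXB2 had 1 above background and HOXD9 none. HOXA3 had a difference of -0.04 (SE 0.31), with the siUCA1 A1 array at 1.46 and the other siUCA1 arrays between 2.67 and 2.89. Without that array its difference was 0.29, and without both arrays of large surface trend 0.16. The sign also turned without sictrl A1 (0.05), without sictrl A2 (0.05), with array weights (0.09) and with normexp (0.01), so that HOXA3 has no settled direction.

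HOXA2, a gene of the hindbrain and the branchial arches, did not enter the fit, since it passed background on 3 of 4 sictrl arrays but on none with siUCA1. It was at -1.50, -2.11, -1.88 and -2.30 in sictrl and at -2.44, -3.13, -2.37 and -2.84 in siUCA1. All sictrl values lay above all siUCA1 values, the nearest by less than 0.1. The siUCA1 values were then set to the dimmest signal that still passed background on each array, or to HOXA2's own signal if brighter. At this setting HOXA2 was 1.56-fold higher in sictrl, whose mean includes the array that did not pass. The conditions overlap there, since siUCA1 A2 becomes -2.11, above sictrl A3 at -2.30. HOXA2 was singled out for passing background in 1 condition only, so that this fold is a description. HOXA6 was above background on 3 arrays of each condition, with overlapping values, and HOXA7 on 1 siUCA1 array. HOXA11 and HOXA13 were on none.

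Of the 2 HOXD genes in the fit, HOXD8 had a difference of 0.33 (SE 0.19), with the siUCA1 A1 array at -0.31 and the other siUCA1 arrays between 0.32 and 0.44. Without that array the difference was 0.50. HOXD13, the last gene of its cluster and known from digit formation, was above background on 4 sictrl and 2 siUCA1 arrays. Its difference was -0.60 (SE 0.38), with an SD of 0.87 in siUCA1. On siUCA1 A2 it was at -2.26 and did not pass, whereas the dimmer sictrl M2, A2 and A3 values (-2.34, -2.43 and -2.45) passed. Its siUCA1 M2 array was at -4.11, and without it the difference was -0.19. With dim values raised to the detection level it was -0.28 and with normexp -0.05, so that the size of the difference depends on values near background. HOXD1 passed background on 2 siUCA1 arrays only. With sictrl set in the way used for HOXA2, it was 1.05-fold higher in siUCA1, whose mean includes the arrays that did not pass.

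In the HOXB cluster the values of siUCA1 and sictrl overlapped for all 7 genes in the fit. HOXB8, known from myeloid progenitors, was at -0.81, -1.17, -1.16 and -0.35 on the sictrl arrays A1, M2, A2 and A3 and at 0.28, -0.51, -0.43 and -0.08 on those of siUCA1. It was higher in siUCA1 within all 4 names, with a difference of 0.69 (SE 0.23), while its values overlapped between conditions. HOXB6 was also higher within all 4 names, with a difference of 0.42 (SE 0.24). HOXB9 was lower within all 4, at -0.33 (SE 0.23). Without both arrays of large surface trend the difference of HOXB8 was 0.70. With single arrays left out, that of HOXB6 ran from 0.26 (without siUCA1 A3) to 0.56 and that of HOXB9 from -0.51 (without siUCA1 A1) to -0.16 (without siUCA1 A2). Within the first and the second row of the slide HOXB8 was at 1.26 and 0.11. HOXB6 was at 1.08 and -0.24 and HOXB9 at 0.24 and -0.90, so that their sign turned between rows. The first row held sictrl M2 and A2 with siUCA1 A1 and A3, and the second held the other arrays. A row difference thus sets unlike replicate names against each other and cannot be told apart from differences between names. Within the 4 columns of the slide HOXB6 ran from 0.24 to 0.61, HOXB8 from 0.63 to 0.73 and HOXB9 from -0.53 to 0.09.

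Some HOXB values fell in the same order by replicate name in both conditions. The order does not use the contrast that chose the family, but it was noticed in these values, and no HOX gene passed the adjusted test of differences between replicate names. HOXB6 was at 1.35 (A1) and 1.40 (A3) and at 0.83 (M2) and 0.67 (A2) in sictrl. In siUCA1 it was at 1.70 (A1) and 1.96 (A3) and at 1.20 (M2) and 1.07 (A2). In both conditions the A1 and A3 arrays thus lay above the M2 and A2 arrays.

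The same order held for HOXB2, HOXB5, HOXB8 and HOXB9, which makes 5 of the 18 HOX genes tested, all 5 of them among the 7 of the HOXB cluster. It held for 850 of all 15455 genes (5.5%). HOXB5 was at -0.63 (A1) and 0.08 (A3) against -1.71 (M2) and -1.69 (A2) in sictrl. In siUCA1 it was at -0.07 (A1) and -0.95 (A3) against -1.09 (M2) and -1.24 (A2). Its SD within conditions of 0.72 was above the 95th percentile of all genes (0.55). HOXB4 did not follow the order in siUCA1, and HOXB13, at the far end of the cluster, was lowest on A3 in sictrl (1.15) and on A1 in siUCA1 (1.32).

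The test of differences between replicate names (limma F test with the condition in the model, adjusted over all genes) passed for 0% of all genes and for 0 of the 18 HOX genes. At an unadjusted p under 0.05 it gave 1546 of all genes and 4 HOX genes, 2 of them in the HOXB cluster. The A1 and A3 arrays of both conditions lay in columns 2 and 4 of the slide and the M2 and A2 arrays in columns 1 and 3, so that replicate name and place on the slide cannot be told apart. The arrays of large surface trend are both among the A1 and A3 arrays.

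**Figure D3:**
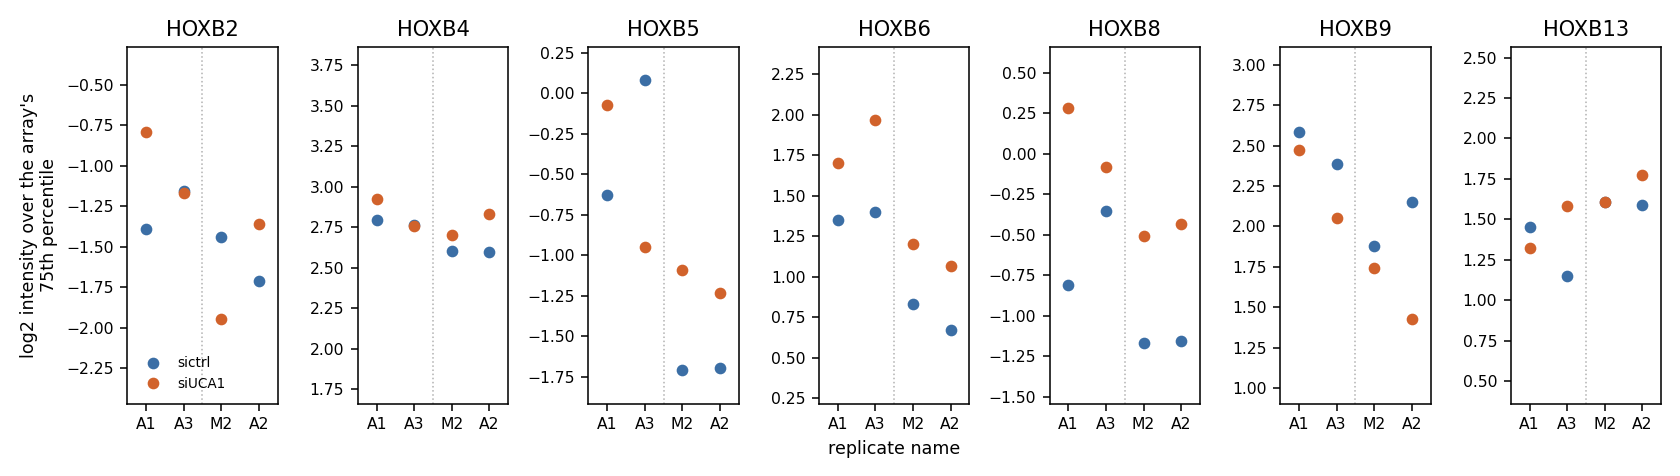
Each point is 1 array, as the log2 intensity of a HOXB gene relative to the array's 75th percentile, by replicate name, with sictrl in blue and siUCA1 in orange and each panel spanning the same range of log2 units. For HOXB2, HOXB5, HOXB6, HOXB8 and HOXB9 the A1 and A3 points lie above the M2 and A2 points of the same color, whereas HOXB4 keeps that order in sictrl only and HOXB13 in neither condition.

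The noncoding RNAs transcribed from the clusters were counted gene by gene. Of 24, 16 were on the array, 9 were in the fit and 1 passed the threshold, where 11.6% of all genes passed, with a median difference of -0.10 against 0.03 over all genes. HOTAIRM1, a transcript of the HOXA cluster known from myeloid differentiation, was at 3.15, 3.26, 3.30 and 3.48 in sictrl and at 2.94, 2.64, 2.57 and 2.59 in siUCA1. It was lower on every siUCA1 array than on any sictrl array and fell by 0.61 (SE 0.12, limma, adjusted p = 0.0144), a 1.53-fold change. Without siUCA1 A2 its adjusted p was 0.0505, and over its 23 alternatives the adjusted p ran from 0.00055 to 0.240.

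The other noncoding RNAs did not pass. HAGLROS, a transcript of the HOXD cluster, had a difference of 0.52 (SE 0.20, limma, adjusted p = 0.122) and HOXB-AS1 of 0.37 (SE 0.11, limma, adjusted p = 0.0688). HOXD-AS2 was at 0.32 (limma, adjusted p = 0.334), HOXC-AS1 at -0.27 (limma, adjusted p = 0.482) and HOXA-AS2 at -0.22 (limma, adjusted p = 0.690). The HOTAIR feature with a RefSeq accession was above background on 3 arrays and was not in the fit. A catalogue transcript named after HOTAIR, which lies outside the rule for named genes and was looked at after its values were seen, had a difference of 0.55 (limma over all kept features, adjusted p = 0.120). The miRNAs of the clusters were not analysed here.

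Of 10 cofactor genes, 9 were on the array and 5 in the fit, and 0 passed the threshold with limma, with 2 at an unadjusted p under 0.05. Of all genes 11.6% passed and 27.6% had an unadjusted p under 0.05. PKNOX1, a partner of PBX proteins, had a difference of -0.46 (SE 0.17, limma, adjusted p = 0.118). PBX3 was at -0.31 (limma, adjusted p = 0.206), TGIF1, a related repressor, at 0.25 (limma, adjusted p = 0.110) and PBX4 at 0.09 (limma, adjusted p = 0.710). PBX2 was at 0.04 (limma, adjusted p = 0.819). MEIS2, MEIS3 and TGIF2 were above background on no array and MEIS1 on 3. With array weights, or without both arrays of large surface trend, 2 cofactors passed, and without sictrl A3 alone 1 did. Over all genes these fits called 30.6%, 25.6% and 14.7%.

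Of 14 genes at the ends of the clusters, 13 were on the array and 9 in the fit, and 0 passed with limma, with 1 at an unadjusted p under 0.05, compared with 11.6% and 27.6% of all genes. SMUG1, a uracil-DNA glycosylase next to the HOXC cluster, had a difference of -0.20 (SE 0.09, limma, adjusted p = 0.170). CALCOCO1, near the other end of the HOXC cluster, was at 0.36 (limma, adjusted p = 0.377), and EVX1, a homeobox gene beside the HOXA cluster, at 0.06 (limma, adjusted p = 0.900). MTX2, beside the HOXD cluster, was at 0.20 (limma, adjusted p = 0.219) and LNPK at -0.16 (limma, adjusted p = 0.586). The differences of the 9 genes ran from -0.20 to 0.36. With array weights, or without both arrays of large surface trend, 2 flanking genes passed, where the same fits called 30.6% and 25.6% of all genes.

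Of 28 regulators of HOX transcription, all were on the array, 15 were in the fit and 0 passed with limma, with 2 at an unadjusted p under 0.05, where all genes gave 11.6% and 27.6%. KMT2A, the methyltransferase of the MLL complex that keeps HOX genes active, had a difference of 0.46 (SE 0.14, limma, adjusted p = 0.0624). MEN1, whose product menin belongs to the same complex, was at -0.30 (SE 0.12, limma, adjusted p = 0.140). KMT2B was at 0.23 (limma, adjusted p = 0.390), ASH2L at 0.19 (limma, adjusted p = 0.300) and PSIP1 at -0.18 (limma, adjusted p = 0.272). Of the retinoic acid genes, RARA, RARG, RXRA and RXRB were in the fit with differences between -0.18 and -0.03, and the enzymes CYP26A1, CYP26B1, CYP26C1, ALDH1A1 and ALDH1A2 were above background on no array, while ALDH1A3 was on 4, CRABP1 on 2 and RARB on 1. With array weights 2 regulators passed, and 1 passed with trend and robust settings, without sictrl A3, or without both arrays of large surface trend. Of all genes, array weights called 30.6%, trend and robust settings 11.8%, and the other 2 fits 14.7% and 25.6%.

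**Figure D4:**
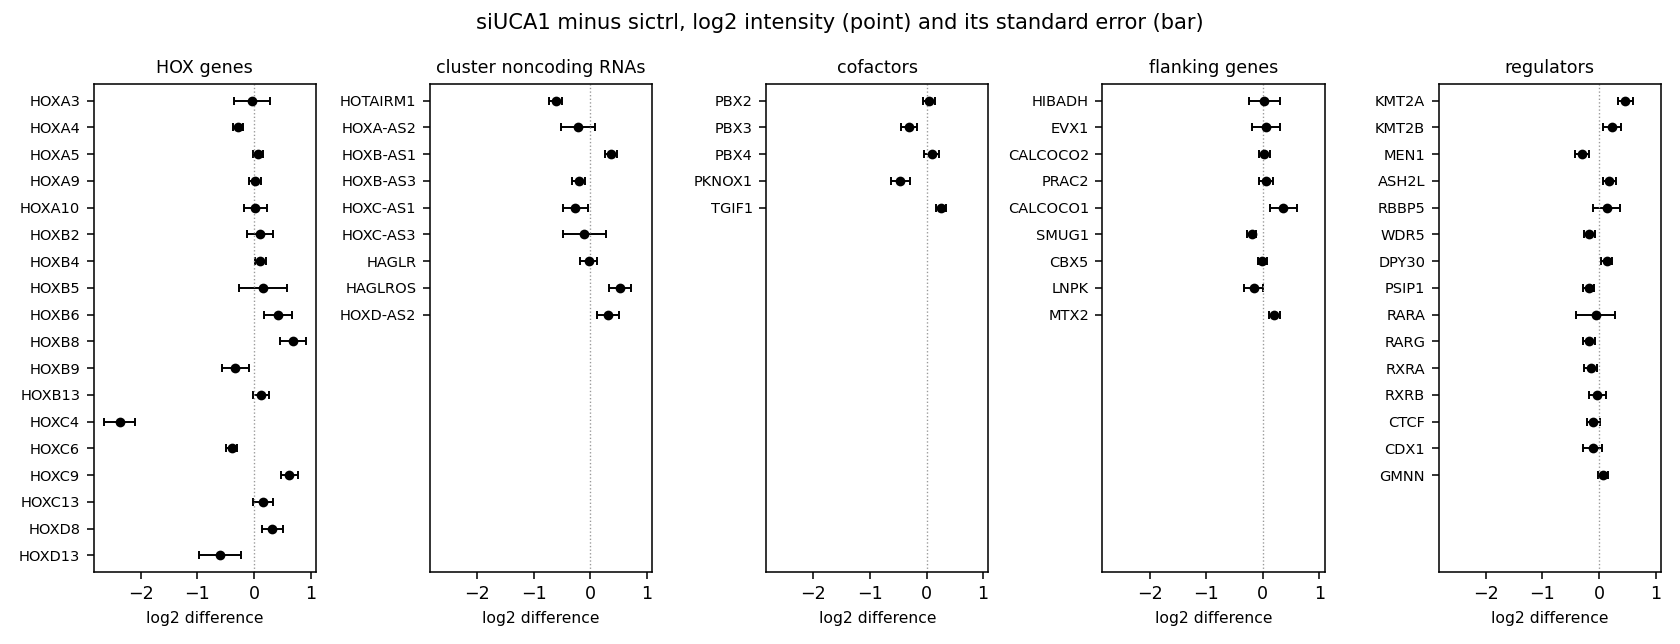
Points are differences between siUCA1 and sictrl in log2 intensity (4 arrays per condition) and bars are their standard errors, for the HOX genes in the fit and the 4 other lists on 1 scale. HOXC4 at -2.38 is the lowest point, and the points of the other lists lie between -0.61 and 0.52.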

How the data were processed

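RNA of sictrl and siUCA1 OAW42-R cells was hybridized to Agilent 8x60k arrays with 1 dye, and the 8 arrays were grouped by the sample labels into 4 and 4. The authors deposited the output of Agilent Feature Extraction 10.7.3.1 (version from the submitters' processing notes), whose processed signal is a linear intensity after background subtraction and removal of a surface trend, not normalized between arrays. Precision is bounded by having 4 arrays a condition. The series-wide values they deposited were the same intensity values (largest relative difference 0). No spot was saturated, and the 8 arrays lay on 1 slide with 1 scan.

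The deposited intensity was set on a log2 scale relative to the 75th percentile of its array over 60901 non-control spots. Outlier spots were left out, spots of 1 probe averaged, and a probe kept when it passed background on every array of either condition. The brightest of 19046 kept probes stood for a gene. Accessions were matched to symbols of RefSeq (GRCh38.p14), and all 38 HOX genes matched. limma 3.58.1 (lmFit, eBayes) in R 4.3.3 was fitted to 15455 genes, with Benjamini-Hochberg adjustment over all of them. The script was tested on simulated data. Figures used matplotlib 3.10.9 in Python 3.11.15, and values were handled with the data.table package, version 1.17.8.

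The members, gene lists and tests were chosen with earlier results of these data known. Values per array are given for HOX genes past the threshold, those whose conditions do not overlap, the paralogues HOXA4, HOXB4 and HOXD4 and the neighbours HOXC5 and HOXC6. Of the other lists, genes past the threshold and up to 5 others by the size of their difference are named, with UCA1. HOXB2, HOXB5, HOXB6, HOXB8, HOXB9, HOXA2, HOXA3, HOXC10 and HOXD8, and the other genes of the lists named without this rule, were given values after these had been seen, as was the test between replicate names. Some genes of the cofactor and marker lists are not reported here. The alternatives were 22, of which 8 leave out 1 array, and a slide column block was added after seeing the data.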

Additional observations from a re-analysis of the deposited data

Results flagged for a closer look

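In groups of 4 arrays, 1 value lay far from the other 3 (by Dixon's ratio of the gap to the range, at its critical value for 4) in 11 of 114 groups of HOX genes, listed genes and UCA1, of which 6 were on siUCA1 A1 and 2 on sictrl A3, the arrays of large surface trend. By chance about 5% of groups are marked.

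HOXC4 on siUCA1 A1 was at 0.13 against -1.23 to -1.03 (ratio 0.853), HOXA3 on the same array at 1.46 against 2.67 to 2.89 (0.844), and HOXD8 at -0.31 against 0.32 to 0.44 (0.832). Also on siUCA1 A1, MTX2 was at 3.19 against 3.35 to 3.38 (0.853), RARA at 2.56 against 1.70 to 1.83 (0.849) and GMNN at 5.37 against 5.44 to 5.45 (0.830). On sictrl A3, RARA was at 3.08 against 1.60 to 1.79 (0.870) and PSIP1 at 3.54 against 3.43 to 3.45 (0.882). HOXC-AS1 was at -2.17 on siUCA1 A3 against -1.62 to -1.56 (0.914), HOXC-AS3 at -0.32 on sictrl M2 against -1.32 to -1.15 (0.830), and DPY30 at 4.90 on siUCA1 M2 against 4.99 to 5.01 (0.861).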

How the results depend on the processing

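UCA1 was lower and past the threshold in every alternative run for it, and HOXC4 was lower in all 23 run for it. The number of HOX genes past the threshold (3) was 1 with median scaling, normexp, no detection filter or the slide row as a block, 6 with array weights, and 1 to 4 with single arrays left out. Over all genes the share was 11.6%, and 3.46%, 2.69%, 0.159%, 8.22% and 30.6% in those fits, 4.94% to 15% with single arrays left out, and 25.6% without sictrl A3 and siUCA1 A1. HOXC4 alone passed without sictrl M2, sictrl A2, siUCA1 M2, siUCA1 A2 or siUCA1 A3, HOXC9 was lost without sictrl A1, and HOXB8 was added without sictrl A3. Since the family was chosen for HOXC4 on this contrast in the same arrays, the calls of members in these fits are a description and nothing is read from them. Replicate names did not pair the arrays by the rule used: deviations of arrays with the same name correlated between 0.04 and 0.28, above 0.1 in 3 of 4 pairs, and 5 of 8 arrays correlated best with their own name. With the replicate block 5 HOX genes passed, adding HOXB6 and HOXB8, where 11.2% of all genes passed. With the slide column as a block, added after seeing the data, 2 passed (HOXB8 and HOXC4), where 8.26% of all genes passed. Quantile normalization called 11.8% of all genes, and the percentile over detected probes 12.4%. For cluster noncoding RNAs the number (1) was 2 with quantile normalization or the percentile over detected probes, 0 with median scaling, normexp or no detection filter, 3 with array weights, 4 without sictrl A3 and siUCA1 A1, and 0 to 2 with single arrays left out. For cofactors it was 2 with array weights or without those arrays, and 0 to 1 with single arrays left out. For flanking genes it was 2 with array weights or without those arrays. For regulators it was 1 with trend and robust settings, 2 with array weights, 1 without those arrays, and 0 to 1 with single arrays left out. The causes of these changes were not tested, except that no detection filter adjusts over 47753 genes and single arrays left out leave fewer samples. Of the other single gene values, 364 stayed on their side of the threshold, 20 of these with the opposite sign and a shift below the SD within conditions (HOXA3, HOXA9, HOXA10, HOXB2 and HOXB5), 23 were past the threshold no longer, 7 passed it newly, and HOXA5 moved to -0.02 with median scaling. Features near background limit HOXD13, HOXA2 and the 20 HOX genes outside the fit.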
